A study of Mus musculus with 24 samples.

Results

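Ly6Clo cells of wild type mice were compared with Ly6Chi cells of wild type mice, both sorted from peripheral blood (PB) after treatment with imiquimod (IMQ). The comparison used 8 of the 24 RNA-sequencing libraries, 4 of Ly6Clo and 4 of Ly6Chi cells, which were chosen by the genotype, subset and treatment in their labels. Of 53715 genes in the deposited table, 11230 reached a value of 50 in 1 or more of the 24 libraries and were tested. The mice were C57BL/6, were 8 to 10 weeks old and received 50 mg per day of Aldara, a cream with 5% imiquimod, a TLR7 agonist, on depilated skin, and cells were sorted on day 5. The wild type mice (wt) were littermates of the mutants used below, and the GFP+ sort gate means that they carried the Cx3cr1 GFP reporter allele. Of the remaining 16 libraries, 8 came from Ly6Clo and Ly6Chi cells of IMQ-treated N2ΔMy mice, in which Cre expressed from the Lyz2 locus of myeloid cells deletes floxed *Notch2*, and 8 came from Ly6Chi cells of Sham-treated mice of both genotypes. Ly6Clo cells of Sham-treated mice were not analysed here, so a difference between the subsets cannot be set against the same difference without IMQ.

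Blood monocytes of the mouse form 2 main subsets. Ly6Chi or classical monocytes leave the bone marrow with the help of the chemokine receptor CCR2, enter inflamed tissue and can become macrophages or dendritic cells. Ly6Clo or patrolling monocytes crawl on the inner wall of blood vessels, depend on the nuclear receptor Nr4a1 and arise in large part from Ly6Chi monocytes, a step known as conversion that takes input from Notch2. The comparison therefore asks which genes separate the converted cell from its precursor while the animal is under a systemic TLR7 stimulus.

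The values are counts that the authors normalized with DESeq2 and rounded to whole numbers. Read counts on genes, inferred from the rounding, lay between 12260176 and 15594484 in the Ly6Chi libraries and between 10361145 and 15204528 in the Ly6Clo libraries. Mitochondrially encoded genes held 5.26% to 8.93% of the values. Replicates 1 and 2 form 1 library series and replicates 3 and 4 another. Across genes, which are not independent replicates, libraries of the same subset correlated at 0.966 to 0.982 within a series and at 0.948 to 0.96 between the series, and libraries of different subsets at 0.861 to 0.906. Changes are given as log2 fold changes of value + 1, Ly6Clo over Ly6Chi, with the standard error (SE) and the Benjamini-Hochberg adjusted p of limma over all genes tested, and a gene was called where that p did not exceed 0.05 and the change was 0.6 or more in size. In sorted bulk samples a lower share of a cell type and less RNA per cell cannot be told apart.

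The cells matched their labels. Ly6Chi cells were gated as Lin- CD11b+ GFP+ CD115+ Ly6Chi CD43- MHC-II- and Ly6Clo cells as Lin- CD11b+ GFP+ CD115+ Ly6Clo/- MHC-II-. Values of the gate genes are therefore given as a check of the labels and not as findings. CD115 was gated positive in both subsets. *Ly6c2*, which encodes the antigen read by the Ly6C antibody together with its near-identical neighbour *Ly6c1*, stood at 19, 12, 92 and 38 in the Ly6Clo libraries and at 2615, 2686, 6233 and 6065 in the Ly6Chi libraries. *Ly6c1* was below the minimum in all 24 libraries, and reads of the 2 copies may have been shared between them. *Spn*, which encodes CD43, was higher in Ly6Clo cells by 1.95 (SE 0.15, adjusted p = 4.18e-06), and *Csf1r*, which encodes CD115, by 0.79 (SE 0.13, adjusted p = 0.000713). The other gate genes tested, *Itgam*, *Cx3cr1*, *Ptprc*, *H2-Aa*, *H2-Ab1* and *H2-Eb1*, were not called. Lymphocyte markers summed to low values. The sum over 10 T cell markers was 6 to 33 in Ly6Clo and 5 to 13 in Ly6Chi libraries, and that over 10 B cell markers 56 to 124 and 69 to 126, most of it *Cd79b*. *Cd3e*, *Ms4a1*, *Ncr1* and *Ly6g* were listed at 0 in all 8 libraries. So were *mt-Co2* and *mt-Co3*, mitochondrial genes that every cell uses, and a listed 0 in this table is therefore not read as absence of a transcript or of a cell type. The sum over 9 erythroid markers reached 1311 in replicate 4 of the Ly6Clo cells and 774 in replicate 4 of the Ly6Chi cells and had medians of 55 and 24. *Hbb-bs*, *Itga2b* of platelets, *Klrk1* of NK cells and the progenitor receptor gene *Kit* were not called (1.49, 0.90, -1.39 and 2.28), although the first 3 were called with the replicate block. Of 7 tissue macrophage markers tested, *Adgre1*, which encodes F4/80, and *C1qc* were higher by 0.99 and 2.04 and *Siglec1* was lower. The call of *C1qc* was lost without Ly6Chi replicate 3 or Ly6Clo replicate 2 or 4 (adjusted p of 0.0527 to 0.089).

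The 2 subsets differed at 1331 genes that were higher and 1429 that were lower in Ly6Clo cells, which is 11.9% and 12.7% of the genes tested and 24.6% in all. The changes were large. The log2 fold change was at least 1 for 750 genes and at least 3 for 122 genes, and at most -1 for 894 genes and at most -3 for 165 genes, which makes 2.56% of all genes with a change of 3 or more in size, against a median over all genes tested of -0.0073. The 4 libraries of each subset did not overlap for 3978 genes (35.4%), among them 2518 of the 2760 called. Every called gene had the same sign of change in each of the 2 library series. The calls came from these same libraries, so this agreement is a description only. For a gene whose libraries did not overlap, the two-sided exact permutation test over the 70 splits of 8 libraries gave p = 0.0286, the smallest that it can give. For such genes the absence of overlap fixes this outcome, and the test ignores the replicate numbers and the series.

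**Figure D1:**
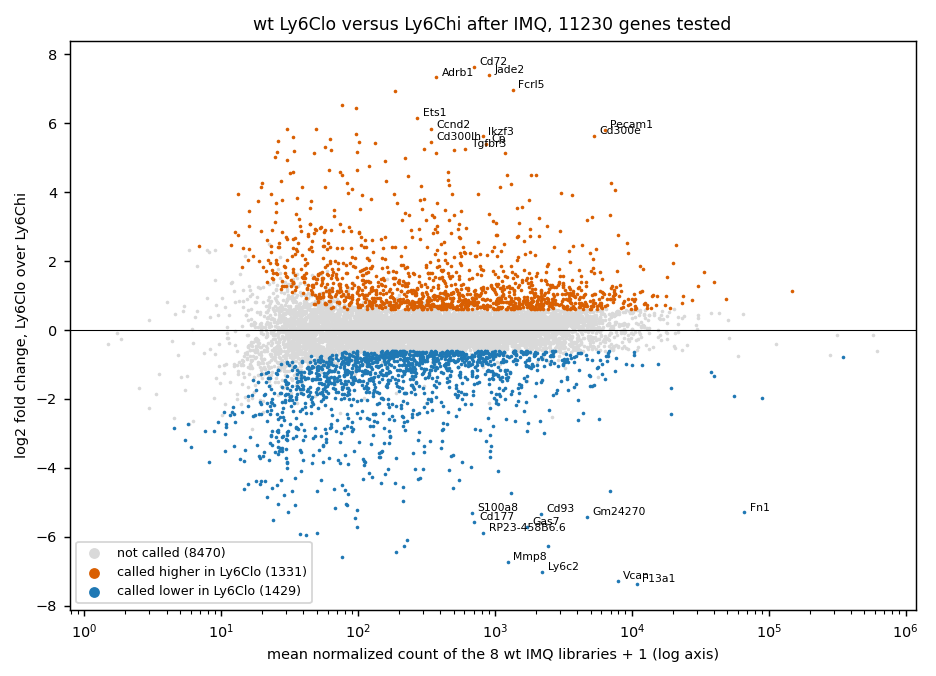
Log2 fold change of Ly6Clo over Ly6Chi cells (vertical axis) against the mean normalized count of the 8 wt IMQ libraries plus 1 (horizontal, log axis), with 1 point for each of the 11230 genes tested. Orange points are the 1331 genes called higher and blue points the 1429 called lower, and the names mark genes with large changes among those well expressed.

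The largest changes are given among genes with a mean of at least 500 in the higher subset and no overlap between the subsets. Those higher in Ly6Clo cells were headed by genes with low values in Ly6Chi cells. *Cd72*, an inhibitory lectin receptor best known from B cells, stood at 1468, 1760, 809 and 1522 in Ly6Clo and at 2, 6, 7 and 11 in Ly6Chi libraries, which is 7.64 (SE 0.40, adjusted p = 5e-07). *Adrb1*, the beta-1 adrenergic receptor, stood at 774, 582, 632 and 978 against 2, 4, 3 and 6. Each Ly6Clo library of both genes lay above every Ly6Chi library. The B cell marker *Cd79b* stood at 66, 73, 53 and 111 against 70, 68, 99 and 119 and was not called. *Jade2*, a subunit of histone acetyltransferase complexes, was higher by 7.39 (SE 0.67, adjusted p = 1.3e-05), and *Fcrl5*, an Fc receptor-like protein, by 6.96 (SE 0.40, adjusted p = 7.8e-07). The transcription factors *Ets1* and *Ikzf3* (Aiolos), both known from lymphocytes, rose by 6.14 and 5.61 (adjusted p = 2.1e-06 and 2.21e-05).

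*Pecam1*, the adhesion molecule CD31, combined a large change with a high level, with 13876, 13720, 9118 and 12997 in Ly6Clo and 116, 212, 254 and 371 in Ly6Chi libraries (5.80, SE 0.29, adjusted p = 4.24e-07). *Cd300e*, an activating immune receptor, did the same, with 9217, 10794, 8919 and 12189 against 58, 214, 242 and 589 (5.63, SE 0.52, adjusted p = 1.51e-05). Replicate 4 was the highest and replicate 1 the lowest of the Ly6Chi libraries for both genes. *Cp*, the copper-carrying ferroxidase ceruloplasmin, stood at 2055, 1978, 1184 and 1533 against 45, 36, 23 and 58, and *Ccnd2*, the G1 cyclin D2, at 582, 644, 332 and 1126 against 8, 18, 8 and 8. *Cd300lh* and *Tgfbr3*, the TGF-beta co-receptor betaglycan, completed the 12 largest increases by this rule with 5.47 and 5.26. *Cd300lh* and *Cd300e* belong to a family of similar genes, between which reads may have been split.

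Among the genes lower in Ly6Clo cells, a clotting and a matrix gene led by the same rule. *F13a1*, the A subunit of coagulation factor XIII, stood at 71, 74, 450 and 120 in Ly6Clo and at 19633, 19222, 22934 and 24635 in Ly6Chi libraries (-7.36, SE 0.47, adjusted p = 1.47e-06). *Vcan*, the matrix proteoglycan versican, stood at 115, 69, 153 and 77 against 16964, 14842, 12389 and 18487 (-7.28, SE 0.23, adjusted p = 1.61e-08), and *Fn1*, fibronectin, at 3957, 2158, 4325 and 3163 against 136286, 109248, 137785 and 132747 (-5.29, SE 0.20, adjusted p = 5.04e-08). Replicate 3 was the highest Ly6Clo library for *F13a1*, *Vcan*, *Fn1* and *Ly6c2*, and it remained far below every Ly6Chi library. Without it the log2 fold change of *F13a1* was -7.95.

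*Mmp8*, a neutral collagenase, stood at 24, 19, 20 and 23 in Ly6Clo and at 2012, 1936, 2204 and 3660 in Ly6Chi libraries (-6.72, SE 0.21, adjusted p = 1.61e-08), so its Ly6Clo libraries lay close together. *Gas7*, an actin-binding adaptor, fell by 5.72 (SE 0.32, adjusted p = 7.25e-07). *Cd177*, a surface antigen of neutrophils, and *Cd93*, a lectin-like receptor, changed by -5.57 and -5.34. *S100a8*, a calgranulin subunit, stood at 18, 4, 45 and 87 against 561, 545, 930 and 3257, with replicate 4 the highest in both subsets. *RP23-458B6.6*, a transcribed pseudogene of the Ly6 cluster on chromosome 15, followed *Ly6c2* with -5.88, and reads of *Ly6c2* may have been counted on it. *Gm24270*, a short locus annotated as a miRNA, stood at 80, 107, 122 and 80 against 3420, 310, 16304 and 17019. The Ly6Chi libraries of this locus spread widely, and the SE of its change was 1.02.

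**Figure D2:**
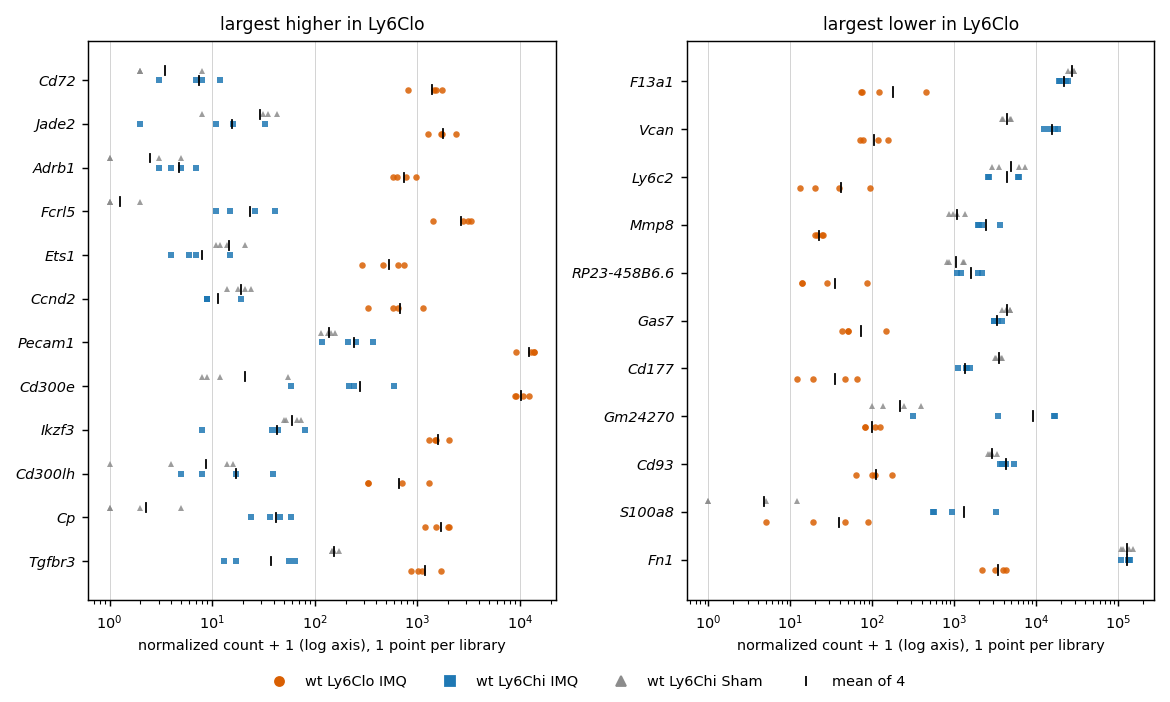
Normalized count plus 1 (horizontal, log axis) of 12 genes with the largest increases (left) and 11 with large decreases (right), all with a mean of at least 500 in the higher subset, in wt Ly6Clo over wt Ly6Chi cells after IMQ, with 1 point per library, 4 libraries per group and a black bar at the mean. Orange Ly6Clo and blue Ly6Chi IMQ libraries do not overlap for any of these genes, and grey triangles show Ly6Chi libraries of Sham-treated wt mice.

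Promoters were searched for 4 motifs that monocyte regulators are known to bind, on both strands of the 300 bases that RefSeq gives from 250 bases before to 50 after a start site. Promoters were listed for 7744 of the genes tested, of which 867 were higher and 1042 lower. The C/EBP motif TTNNGCAA was in 8.19% of the promoters of higher genes, 10.5% of those of lower genes and 8.33% of all. AAAGGTCA, the NBRE bound by Nr4a1, was in 1.5%, 1.06% and 0.839%, the PU.1-type ETS motif GAGGAAGT in 6.34%, 4.32% and 3.59% and the AP-1 motif TGACTCA in 3.92%, 5.09% and 3.37%. None of the 4 motifs contains another, and these shares are descriptions with no test. The promoters of *Cd72*, *Ly6c2* and *Mmp8* are shown because they belong to the genes with the largest changes whose listed promoter held a motif, in GRCm38.p6 and in the direction of transcription, with the motifs in capitals.
Cd72 (chr4:43454577-43454876, minus strand): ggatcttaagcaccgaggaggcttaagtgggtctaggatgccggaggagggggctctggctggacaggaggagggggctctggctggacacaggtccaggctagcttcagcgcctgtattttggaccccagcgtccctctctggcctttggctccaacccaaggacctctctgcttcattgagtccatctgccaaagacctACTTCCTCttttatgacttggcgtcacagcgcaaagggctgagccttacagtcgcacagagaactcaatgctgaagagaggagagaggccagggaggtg
Ly6c2 (chr15:75111922-75112221, minus strand): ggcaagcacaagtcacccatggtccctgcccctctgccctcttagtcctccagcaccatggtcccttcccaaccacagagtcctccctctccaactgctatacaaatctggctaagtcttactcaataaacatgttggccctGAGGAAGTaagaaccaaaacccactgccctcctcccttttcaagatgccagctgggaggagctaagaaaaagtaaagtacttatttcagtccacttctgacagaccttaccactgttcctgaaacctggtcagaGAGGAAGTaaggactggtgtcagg
Mmp8 (chr9:7558179-7558478, plus strand): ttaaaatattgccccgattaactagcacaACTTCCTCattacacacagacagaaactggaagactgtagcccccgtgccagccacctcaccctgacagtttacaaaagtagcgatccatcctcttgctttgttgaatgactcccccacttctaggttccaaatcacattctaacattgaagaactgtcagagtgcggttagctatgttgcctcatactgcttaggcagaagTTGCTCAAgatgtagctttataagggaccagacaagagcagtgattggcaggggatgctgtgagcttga
The ETS motif begins at base 202 in *Cd72*, on the opposite strand, at bases 143 and 277 in *Ly6c2* and at base 30 in *Mmp8*, on the opposite strand. The capitals at base 232 of *Mmp8* are the C/EBP motif, also on the opposite strand. A match does not show that a factor was bound. The listed promoters of *Adrb1*, *Fcrl5*, *Cd300e*, *Cp*, *F13a1*, *Vcan* and *Cd177* held none of the 4 motifs, and that of *S100a8*, not shown, held the ETS motif.

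Known markers of the subsets behaved as the sort would have it. Of 22 patrolling monocyte markers, 21 were higher and 0 lower, against 11.9% higher and 12.7% lower of all genes, with a median log2 fold change of 2.75. The exception was *Cx3cr1*, the fractalkine receptor, of which the mice have a reporter allele, at 2378, 2379, 2608 and 3250 against 1652, 1988, 2377 and 2424 (0.34, SE 0.14, adjusted p = 0.0947). *Fabp4*, a fatty acid carrier, and *Itgax*, which encodes CD11c, rose the most of the listed markers, by 4.58 and 4.51. Of 20 classical monocyte markers tested, 18 were lower, or 20 with the replicate block, against 12.7% of all genes, with a median of -2.35. *Gpr141*, an orphan receptor, was among the 2 that were not called, at -0.74 (adjusted p = 0.0591), and was called with the replicate block (adjusted p = 7.12e-07) and without Ly6Chi replicate 1 or 2 or Ly6Clo replicate 3 or 4 (adjusted p of at most 0.049). The median over all genes tested was -0.0073, and such markers are known because they separate these subsets. The counts include gate genes, *Spn* and *Cx3cr1* in the patrolling list and *Ly6c2* in the classical list.

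Transcription factors of monocyte fate split. Of 51 tested, 14 were higher and 12 lower, more than 24.6% of all genes, and the list median was -0.05. *Nr4a1*, the nuclear receptor on which Ly6Clo monocytes depend, stood at 17542, 16752, 16330 and 20934 in Ly6Clo and at 3858, 5445, 4936 and 5704 in Ly6Chi libraries (1.85, SE 0.13, adjusted p = 2.84e-06). *Pou2f2*, the octamer factor Oct2, stood at 15113, 13641, 23424 and 22236 against 4087, 3997, 7156 and 6987 (1.76, SE 0.24, adjusted p = 0.000218). Both genes separated the subsets in each library, and *Pou2f2* was higher in replicates 3 and 4 of both. *Klf4*, a zinc finger factor of monocyte differentiation, stood at 9462, 8060, 9251 and 10134 against 4525, 4190, 4467 and 4646 (1.05, SE 0.09, adjusted p = 1.07e-05), whereas its relative *Klf2* overlapped between the subsets (0.46, SE 0.15, adjusted p = 0.036). *Pparg*, the fatty acid sensing nuclear receptor, rose by 4.23 (SE 0.27, adjusted p = 1.4e-06).

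*Cebpb*, a C/EBP factor needed for Ly6Clo monocytes, stood at 4890, 14016, 7329 and 5774 in Ly6Clo and at 6024, 6324, 4704 and 2888 in Ly6Chi libraries. The libraries overlapped, and replicate 2 was the highest of both subsets (0.62, SE 0.32, adjusted p = 0.163). With the replicate block the gene was called (adjusted p = 0.00728). Of the lower factors, *Tfec*, a relative of Mitf, stood at 0, 0, 0 and 4 against 219, 153, 101 and 123 (-6.59, SE 0.61, adjusted p = 1.51e-05), with 3 of its 4 Ly6Clo libraries listed at 0. *Irf4*, which favours dendritic and macrophage fates, stood at 143, 225, 408 and 242 against 800, 844, 897 and 724 (-1.77, SE 0.25, adjusted p = 0.000307). *Irf8*, needed for monocyte and dendritic cell precursors, was lower by a margin close to the threshold (-0.62, SE 0.12, adjusted p = 0.00206) and its change fell short of 0.6 without Ly6Chi replicate 1 or 2 or Ly6Clo replicate 3 or 4 (-0.55 to -0.59). *Zeb2*, the best expressed factor not called, stood at -0.30.

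Of 25 Notch pathway genes tested, 5 were higher, 2 lower and 18 not called. The share of calls was close to that of all genes, and the median was 0.16. *Hes1*, a transcriptional repressor and direct Notch target, stood at 592, 672, 744 and 788 in Ly6Clo and at 132, 187, 172 and 189 in Ly6Chi libraries (2.04, SE 0.15, adjusted p = 3.2e-06), and *Nrarp*, a target that feeds back on the pathway, at 151, 132, 128 and 151 against 4, 5, 4 and 7 (4.58, SE 0.31, adjusted p = 1.93e-06). The receptors diverged. *Notch1* was lower, at 696, 495, 337 and 591 against 2894, 2152, 2260 and 2043 (-2.18, SE 0.20, adjusted p = 1.51e-05), while *Notch2* stood at 20005, 16624, 16037 and 18399 against 14982, 14001, 13993 and 12656 and did not reach the fold threshold (0.35, SE 0.10, adjusted p = 0.0224). The ligand *Jag1*, the co-activator *Maml2* and the glycosyltransferase *Lfng* were higher by 2.35, 1.64 and 0.67, and the ubiquitin ligase gene *Dtx3* changed by -1.06. *Lfng* fell short of 0.6 without Ly6Chi replicate 1 or Ly6Clo replicate 4 (0.55 in the latter case). The values of *Jag1* were low, from 29 to 116 in Ly6Clo libraries. *Notch3*, *Notch4*, *Dll1*, *Dll4*, *Hes5*, *Hey1* and *Hey2* did not reach the minimum.

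The receptor of the drug and its adaptor differed by less than the fold threshold. *Tlr7* stood at 2703, 3302, 3496 and 3887 in Ly6Clo and at 2320, 2978, 2997 and 3349 in Ly6Chi libraries (0.20, SE 0.14, adjusted p = 0.284), and *Myd88* at 2178, 2237, 1465 and 1635 against 2498, 2872, 1747 and 2546 (-0.36, SE 0.18, adjusted p = 0.138). The subsets overlapped for both genes, and neither was called. Within the pairs of same-numbered libraries *Tlr7* was higher in Ly6Clo cells in 4 of 4 and *Myd88* lower in 4 of 4, and with the replicate block the adjusted p was 0.0161 for *Tlr7* and 0.00179 for *Myd88*, with the same fold changes. Of 37 Toll-like receptor pathway genes tested, 2 were higher and 6 lower, under the share of all genes, with a median of -0.05. The lower ones were 4 receptors, the co-receptor gene *Cd14* (-1.13) and *Unc93b1* (-0.75), whose product carries endosomal receptors to their place. *Tlr5*, the flagellin receptor, stood at 2, 4, 3 and 8 against 179, 164, 130 and 162 (-5.04, SE 0.39, adjusted p = 4.29e-06), and *Tlr2*, the lipopeptide receptor, changed by -2.19 (SE 0.19, adjusted p = 8.5e-06). *Tlr11* and *Tlr9*, receptors inside the cell, changed by -2.73 and -1.67, and *Tlr11* lost its call without Ly6Chi replicate 2 (adjusted p = 0.0575). *Irak3*, an inhibitor of the pathway, was higher in every Ly6Clo library, at 4883, 3825, 2456 and 2880 against 1980, 1506, 1191 and 1332 (1.20, SE 0.21, adjusted p = 0.00129). *Tnfaip3*, the ubiquitin-editing inhibitor A20, was called at 0.85 (adjusted p = 0.0309), with overlapping libraries, and lost the call without Ly6Chi replicate 1, 2 or 4 or Ly6Clo replicate 1 or 4 (adjusted p of 0.0566 to 0.0853). *Ikbkb*, the best expressed member not called, stood at 0.11.

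**Figure D3:**
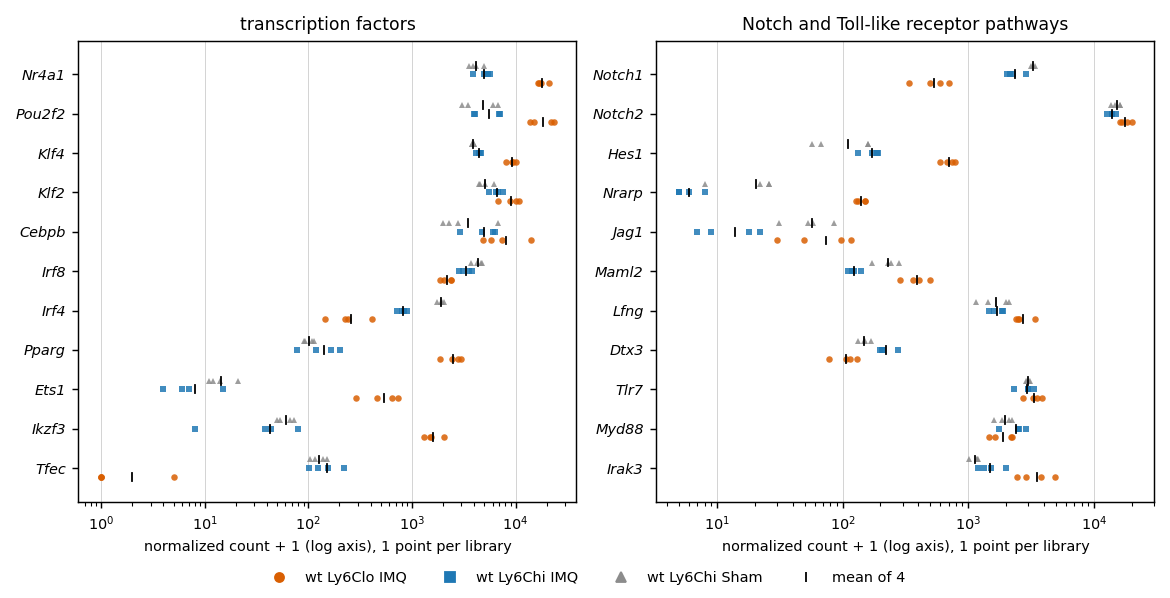
Normalized count plus 1 (horizontal, log axis) of transcription factors (left) and of Notch and Toll-like receptor pathway genes (right), with 1 point per library, 4 libraries per group and a black bar at the mean. *Nr4a1*, *Pou2f2*, *Klf4*, *Hes1* and *Nrarp* separate Ly6Clo (orange) from Ly6Chi cells (blue, and grey for Sham), whereas *Klf2*, *Cebpb*, *Tlr7* and *Myd88* overlap.

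Of 32 adhesion receptors tested, 16 were higher and 7 lower, against 24.6% of all genes, and the list median was 0.60. CD11a and CD18, the chains of LFA-1 by which patrolling cells crawl, are encoded by *Itgal* and *Itgb2*. *Itgal* stood at 60471, 49154, 46334 and 50258 in Ly6Clo and at 14432, 16756, 15995 and 16987 in Ly6Chi libraries (1.68, SE 0.12, adjusted p = 2.1e-06), and *Itgb2* rose by 1.38 (SE 0.14, adjusted p = 2.36e-05). *Itgax* stood at 2145, 2350, 1973 and 2969 against 60, 92, 114 and 167, and *Itgb3*, the integrin chain of platelets and macrophages, at 2124, 1798, 1432 and 1740 against 208, 254, 337 and 262. The collagen receptor chain *Itga1* went the other way, at 36, 51, 32 and 35 against 1094, 766, 1175 and 788 (-4.59, SE 0.20, adjusted p = 1.74e-07). *Itga4*, the best expressed member not called, stood at 0.35. *Itgal* and *Itgb2* were named after their values had been seen, the other genes here by the fixed rule.

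Of 55 actin and motility genes tested, 12 were higher, 5 lower and 38 not called, a share of 30.9% called that was near the 24.6% of all genes, and the median was 0.29. The formins *Fmnl2* and *Fmnl3*, which build actin filaments, rose by 3.29 and 2.55 (adjusted p = 1.85e-06 and 2.32e-06). *Capg*, a filament-capping protein, stood at 404, 395, 403 and 388 in Ly6Clo and at 2634, 2817, 3158 and 3504 in Ly6Chi libraries (-2.92, SE 0.10, adjusted p = 4.21e-08), with Ly6Clo libraries that hardly differed from each other. *Tns3*, a focal adhesion protein, changed by -2.07, and *Actb* was not called (-0.39, adjusted p = 0.0949).

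Of 25 chemotactic receptors tested, 10 were lower, 5 higher and 10 not called, so that 60% were called against 24.6% of all genes. *Ccr2*, which drives exit from the marrow, stood at 482, 641, 991 and 241 in Ly6Clo and at 13680, 13501, 12476 and 13440 in Ly6Chi libraries (-4.67, SE 0.33, adjusted p = 2.31e-06). *Ccr1*, another inflammatory chemokine receptor, stood at 7, 5, 15 and 1 against 491, 362, 267 and 667 (-6.08, SE 0.56, adjusted p = 1.37e-05), and no library of either gene overlapped between the subsets. *S1pr5*, a sphingosine 1-phosphate receptor known for the egress of Ly6Clo monocytes, stood at 3703, 4317, 3915 and 4975 against 405, 387, 665 and 702 (3.01, SE 0.20, adjusted p = 1.66e-06). *C3ar1*, the receptor for complement fragment C3a, rose by 2.41 (adjusted p = 5.59e-05), and *Fpr1*, a formyl peptide receptor, stood at 1047, 790, 381 and 638 against 158, 121, 113 and 179 (2.25, SE 0.28, adjusted p = 0.000114). *C5ar1*, the receptor for C5a, overlapped between the subsets (0.05). *Fpr1* and *C5ar1* were named after their values had been seen. *Gpr35* was the best expressed receptor not called (0.56) and was called without Ly6Chi replicate 4 (0.62). The list median was -0.06.

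Of 30 genes for secreted cytokines, chemokines and growth factors tested, 6 were higher and 9 lower, which is 50% against 24.6% of all genes, and the median was -0.67. The number of lower genes was 14 with the replicate block and 5 in the second library series alone. *Il1b*, which encodes interleukin-1 beta, stood at 2868, 2955, 2718 and 4495 in Ly6Clo and at 187, 133, 207 and 568 in Ly6Chi libraries (3.77, SE 0.37, adjusted p = 2.08e-05), with replicate 4 the highest in both subsets. *Ltb*, lymphotoxin beta, stood at 1222, 1039, 539 and 687 against 35, 52, 32 and 65 (4.20, SE 0.30, adjusted p = 2.31e-06). *Tnf* was also higher, at 485, 343, 190 and 370 against 117, 83, 108 and 75 (1.79, SE 0.27, adjusted p = 0.000456), and was named after its values had been seen. The chemokine gene *Ccl9* and the cytokine gene *Il18* changed by -2.40 (SE 0.23, adjusted p = 2.04e-05) and -1.69 (SE 0.31, adjusted p = 0.00171). *Il6*, *Il10*, *Il12a*, *Il12b*, *Ccl5* and *Cxcl9* did not reach the minimum in any library. The growth factor precursor gene *Grn* was not called (-0.43).

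Of 37 cytokine and growth factor receptors tested, 6 were higher and 9 lower (40.5%, against 24.6% of all genes), with a median of -0.03. *Il21r* rose by 2.70 (SE 0.26, adjusted p = 2.15e-05) and the TGF-beta receptor *Tgfbr2* by 0.98 (SE 0.11, adjusted p = 6.52e-05). *Il6st*, the shared gp130 chain of the interleukin-6 family, stood at 557, 547, 555 and 456 in Ly6Clo and at 3281, 2817, 2554 and 2252 in Ly6Chi libraries (-2.36, SE 0.13, adjusted p = 5.68e-07), and *Acvrl1*, a receptor of the BMP branch, stood at 71, 132, 205 and 132 against 496, 480, 527 and 532 (adjusted p = 0.000158). *Il17ra*, the best expressed receptor not called, stood at 0.45 (adjusted p = 0.00348).

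The list of Fc and complement receptors split evenly as a whole, with 8 higher and 8 lower of 29 tested (55.2%, against 24.6% of all genes). *Fcgr4*, an activating Fc receptor known from Ly6Clo monocytes and named after its values had been seen, stood at 13858, 14302, 8473 and 16645 in Ly6Clo and at 412, 710, 643 and 1121 in Ly6Chi libraries (4.25, SE 0.28, adjusted p = 1.68e-06). The list also holds complement and clotting proteins, and of its 8 lower members *Cd93*, given above, is a receptor and the others are such proteins. *C3*, the central complement component, stood at 8000, 5172, 6954 and 4779 against 31113, 30839, 34281 and 34837 (-2.43, SE 0.16, adjusted p = 1.5e-06), and *F5*, coagulation factor V, at 72, 73, 134 and 108 against 2755, 2415, 2260 and 2695 (-4.74, SE 0.19, adjusted p = 1.08e-07). *Itgam*, the CD11b chain of complement receptor 3, was the best expressed member not called (0.26).

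Vascular and coagulation genes changed in 20 of 25 cases, with 8 higher and 12 lower and a median of -0.75, so that 80% were called against 24.6% of all genes. Genes of 4 clotting factors were lower, *F13a1* and *F5* as above and *F7* and *F10* with -2.45 and -1.56. *F7* and *F10* were named after their values had been seen. All 4 are also members of the Fc and complement list. The gene lists were chosen with earlier results of these data known. *Hpgds*, the prostaglandin D synthase of blood cells, was near 0 in Ly6Chi cells, at 281, 190, 155 and 134 against 3, 1, 4 and 3 (5.69, SE 0.41, adjusted p = 2.59e-06). *Ace*, the angiotensin-converting enzyme, is a patrolling monocyte marker and stood at 35656, 33443, 33455 and 39576 against 3687, 6524, 8370 and 8150 (2.48, SE 0.22, adjusted p = 1.28e-05). *Alox5ap*, an accessory protein of leukotriene synthesis, was not called (-0.51, adjusted p = 0.289), and its values were higher in replicates 3 and 4 of both subsets.

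Genes of apoptotic cell and lipid uptake changed in both directions, with 11 higher and 9 lower of 33 tested (60.6%, against 24.6% of all genes). The median was -0.01. The higher ones included genes of lipid handling. *Fabp4* stood at 668, 809, 701 and 1317 in Ly6Clo and at 13, 32, 56 and 58 in Ly6Chi libraries (4.58, SE 0.42, adjusted p = 1.39e-05), and *Cd36*, a fatty acid and oxidized lipoprotein receptor, at 698, 761, 424 and 1761 against 28, 41, 84 and 65 (3.96, SE 0.43, adjusted p = 4.32e-05). The lower ones included scavenger receptors. *Msr1*, scavenger receptor A, stood at 61, 82, 74 and 76 against 805, 912, 982 and 969 (-3.63, SE 0.14, adjusted p = 6.13e-08), and *Trem2*, a lipid-sensing receptor of macrophages, at 6, 5, 3 and 2 against 165, 147, 147 and 179 (-5.08, SE 0.36, adjusted p = 2.4e-06). *Lrp1*, the best expressed receptor not called, stood at -0.22. *Cd36* was named after its values had been seen.

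Of 35 lysosomal genes tested, 7 were higher and 6 lower (37.1%, against 24.6% of all genes), with a median of -0.15. The acid phosphatases *Acp5* and *Acp2* rose by 3.24 (SE 0.29, adjusted p = 1.3e-05) and 1.33 (SE 0.11, adjusted p = 7.41e-06). *Npc2*, a cholesterol carrier, stood at 1086, 1206, 1397 and 1222 in Ly6Clo and at 3667, 4242, 4547 and 4946 in Ly6Chi libraries (-1.82, SE 0.11, adjusted p = 1.28e-06), and *Ctsc*, the protease cathepsin C, changed by -1.35 (SE 0.11, adjusted p = 7.84e-06). *Ctss*, cathepsin S, was not called (-0.25).

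Of the genes of the Bcl2 family and death control, *Birc5* (survivin), which acts in cell division too, had the largest decrease, at 4, 6, 1 and 2 against 56, 71, 35 and 60 (-3.85, SE 0.52, adjusted p = 0.000208), and was named after its values had been seen. *Bcl2* stood at 2716, 2978, 2695 and 3247 in Ly6Clo and at 164, 239, 266 and 333 in Ly6Chi libraries (3.57, SE 0.18, adjusted p = 4.93e-07). *Bcl2a1b* and *Bcl2a1d*, near-identical copies of an inhibitor of cell death between which reads may have been split, rose by 4.74 and 4.47. Of the genes that promote death, *Bcl2l11* (Bim) and *Bad* were lower, at 410, 392, 425 and 406 against 926, 1008, 864 and 1024 (-1.22, SE 0.10, adjusted p = 5.27e-06) and with -0.86 (SE 0.13, adjusted p = 0.000424), whereas *Pmaip1* (Noxa) and *Bbc3* (Puma) were higher, by 0.72 and 0.60. *Bbc3* lost its call without Ly6Chi replicate 1 or 4 or Ly6Clo replicate 3 or 4 (0.49 to 0.59). *Mcl1*, an inhibitor of cell death, stood at 0.10 and overlapped. *Bbc3* and *Pmaip1* were named after their values had been seen. In all, 6 of 32 Bcl2 family and death control genes were higher and 6 lower (37.5%, against 24.6% of all genes), with a median of 0.11.

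Of 43 cell cycle genes tested, 6 were higher, 12 lower and 25 not called (41.9% called, against 24.6% of all genes), with a median of -0.27. The number of lower genes was 5 in the second library series alone, 7 where a value of 50 was required in 4 libraries and 17 without Ly6Clo replicate 3. *Mki67*, the proliferation antigen, stood at 140, 69, 227 and 117 in Ly6Clo and at 2396, 1680, 1258 and 1461 in Ly6Chi libraries (-3.69, SE 0.32, adjusted p = 8.42e-06), and *Ube2c*, which helps mitotic exit, changed by -3.76 (adjusted p = 0.00129). *Cdkn1b*, the inhibitor p27, was higher (1.03, SE 0.12, adjusted p = 0.000102), and so was *Ccnd2*, as given above. *Ccnd3*, the best expressed member not called, stood at 0.08. *Aurka*, a mitotic kinase, was not called (0.06). The higher ones included the replication genes *Lig1* and *Pold1*, at 0.84 and 1.02. These 2 genes and *Aurka* were named after their values had been seen. Histone genes, whose transcripts lack a poly(A) tail and are read by this total RNA kit, showed 13 lower and 0 higher of 42 (31%, against 24.6% of all genes), or 27 lower with the replicate block, with a median of -1.03. *Hist1h1b* stood at 24, 40, 62 and 60 against 193, 176, 308 and 481 (-2.59, SE 0.37, adjusted p = 0.000333), and *Hist1h1c* was not called (0.13). *Hist1h2ak* was called at -1.24, with overlapping libraries, and lost the call without Ly6Chi replicate 1, 3 or 4 or Ly6Clo replicate 1, 2 or 3 (adjusted p of up to 0.0985).

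The S100 and antimicrobial list had a median of -2.12, the lowest beside that of the classical markers, with 20 lower and 2 higher of 27 tested (81.5%, against 24.6% of all genes). It also holds matrix genes, *Vcan* and *Fn1*, and the proteases *Mmp8* and *Mmp14*. *S100a9*, the calgranulin partner of S100a8, stood at 45, 11, 122 and 64 in Ly6Clo and at 685, 617, 499 and 1651 in Ly6Chi libraries (-4.07, SE 0.61, adjusted p = 0.000434). *Cp* and *Mmp14*, a membrane-bound matrix protease, were the 2 higher members, the latter by 2.40 (SE 0.36, adjusted p = 0.000396). *Wfdc17* was not called (-0.97, adjusted p = 0.117) and was called with the replicate block (adjusted p = 6.44e-05). Of 7 neutrophil markers tested, 4 were lower, 0 higher and 3 not called, against 12.7% of all genes lower, and 5 of the 7 are also members of the S100 and antimicrobial list. Their sum over 12 genes was 3464 to 4443 in Ly6Clo and 7535 to 12909 in Ly6Chi libraries, of which *Csf3r*, the receptor for G-CSF, held 3865, 2961, 2930 and 2801 and 4860, 4161, 4037 and 3787 and was not called (-0.43). *Ly6g*, the defining marker, was listed at 0 in all 8 libraries, which in this table does not speak to the share of neutrophils, and the part of these markers in the list was not tested.

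Of 46 interferon-stimulated genes, all of which were tested, 26 were lower and 2 higher, with a median of -0.80. The share called was 60.9%, against 24.6% of all genes, of which 12.7% were lower. In the second library series alone 17 of the genes were lower. *Slfn5*, a Schlafen family gene, stood at 139, 175, 150 and 40 in Ly6Clo and at 1912, 2884, 1855 and 1213 in Ly6Chi libraries (-4.08, SE 0.42, adjusted p = 3.04e-05). *Isg15*, a ubiquitin-like protein, stood at 18, 42, 11 and 20 against 53, 144, 106 and 54 (-1.95, SE 0.46, adjusted p = 0.00652), and *Mx1*, an antiviral GTPase, at 283, 344, 332 and 234 against 775, 1063, 1025 and 408 (-1.37, SE 0.27, adjusted p = 0.00252). Both were named after their values had been seen. The sensor *Zbp1* and the membrane protein *Ifitm1* were the 2 exceptions, at 0.80 (SE 0.15, adjusted p = 0.00227) and 0.77 (SE 0.13, adjusted p = 0.000885). *Slfn1* was called at -2.81 with overlapping libraries and lost the call without Ly6Chi replicate 3 or 4 or Ly6Clo replicate 1 or 2 (adjusted p of up to 0.0892), and *Ly6e* was not called (-0.30). In Ly6Chi cells of Sham-treated wt mice *Slfn5* stood at 7205, 6891, 4030 and 4378 and *Isg15* at 441, 349, 275 and 338, above both IMQ groups.

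Class II genes varied widely within each subset. *H2-Ab1* stood at 312, 420, 1230 and 84 in Ly6Clo and at 306, 351, 571 and 230 in Ly6Chi libraries, *H2-Aa* at 213, 273, 736 and 67 against 208, 190, 406 and 149 and *H2-Eb1* at 128, 247, 627 and 42 against 95, 64, 265 and 62, and none of the 3 was called. Replicate 3 was the highest and replicate 4 the lowest Ly6Clo library for each of them, with the gate set on MHC-II- cells in both subsets. Ly6Clo replicate 3 was also the highest for *Flt3*, a receptor of dendritic cell precursors, at 65, 71, 325 and 35 against 248, 243, 405 and 370 (-1.84, SE 0.54, adjusted p = 0.0216), whose call was lost without Ly6Chi replicate 3 or 4 or Ly6Clo replicate 1, 2 or 4 (adjusted p of up to 0.0564). The sum over 10 dendritic cell markers was 172 to 701 in Ly6Clo and 634 to 962 in Ly6Chi libraries. Its part in the class II values was not tested. *Cd74*, the invariant chain, was not called (-0.94, adjusted p = 0.106), but was called with the replicate block (adjusted p = 0.00114) and without Ly6Clo replicate 3 (-1.29, adjusted p = 0.0225). Without Ly6Clo replicate 4 its change was -0.45 (adjusted p = 0.174).

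Of 24 genes tested on the class II presentation list, 4 were higher and 4 lower (33.3%, against 24.6% of all genes), with a median of -0.05. Among the higher ones were the checkpoint ligands *Cd274* (PD-L1) and *Pdcd1lg2* (PD-L2), which are neighbours on chromosome 19. *Cd274* stood at 1756, 1677, 1473 and 1648 in Ly6Clo and at 148, 174, 158 and 151 in Ly6Chi libraries (3.37, SE 0.11, adjusted p = 1.61e-08), and *Pdcd1lg2* at 271, 261, 90 and 164 against 3, 0, 5 and 11 (5.46, SE 0.69, adjusted p = 0.000134). *Cd40*, the costimulatory receptor, went the other way, at 25, 39, 36 and 13 against 201, 242, 274 and 185 (-3.05, SE 0.33, adjusted p = 4.32e-05), and so did *H2-DMa*, which loads peptides onto class II (-1.84, SE 0.34, adjusted p = 0.00173). *Clec10a*, a lectin of dendritic cells and macrophages, stood at 6, 17, 35 and 9 against 229, 160, 223 and 197 (-3.79, SE 0.45, adjusted p = 8.37e-05), whereas *Clec9a* was low in both subsets. *Cd274* was named after its values had been seen.

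Genes of ribosomes and respiration were called in 1 direction only, down. Of 76 cytosolic ribosomal protein genes tested, 19 were lower and 0 higher, with a median of -0.53. *Rps12* and *Rpsa* changed by -1.02 (SE 0.13, adjusted p = 0.000167) and -1.01 (SE 0.15, adjusted p = 0.000411), and *Rplp2* stayed under the fold threshold (-0.55), which it passed without Ly6Chi replicate 1 (-0.63). Of 78 nuclear genes of oxidative phosphorylation, 17 were lower and 0 higher, with a median of -0.46, for example *Ndufc2* and *Uqcrq* with -0.90 and -0.84, while *Atp5b* was not called (-0.47). The 7 mitochondrially encoded genes tested had a median of 0.09 and none was called, with *mt-Co1* at 14195, 17038, 30868 and 22588 against 15787, 15553, 26093 and 30858. The shares of calls in the ribosomal and nuclear respiratory lists, 25% and 21.8%, were close to the 24.6% of all genes called in either direction and above the 12.7% called lower. Loci annotated as sense intronic or as unproven transcripts held 0.472% to 0.601% of the values in Ly6Clo and 0.238% to 0.493% in Ly6Chi libraries. The lowest share was in Ly6Chi replicate 4. The median annotated length was 3854 bases for lower, 4568 for higher and 4200.5 for all genes tested. The part of RNA composition or quality in these lists was not tested. No member of either list was called higher under any alternative, but the number of lower ribosomal genes was 38 with quantile normalization and in the second library series alone, 28 with the replicate block, 30 without Ly6Chi replicate 1 and 13 without Ly6Chi replicate 4. That of respiratory genes was 7 without Ly6Chi replicate 4 and 10 without Ly6Clo replicate 1.

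Sterol and fatty acid synthesis genes had 9 lower and 1 higher of 33 (30.3%, near the 24.6% of all genes) and a median of -0.42, with 3 lower in the second library series alone. *Mvk* and *Mvd* of the mevalonate pathway changed by -1.21 and -1.16 (adjusted p = 0.00788 and 0.0004), *Elovl5*, a fatty acid elongase, rose by 0.80 (SE 0.15, adjusted p = 0.00177), and *Acly* was not called (-0.27). Glycolysis and hypoxia genes showed 4 higher and 7 lower of 34 (32.4%), with a median of -0.12 and 4 lower in the second series alone. *Eno3*, the muscle-type enolase and a marker of Ly6Clo monocytes, stood at 6229, 6473, 7156 and 7481 in Ly6Clo and at 203, 374, 606 and 923 in Ly6Chi libraries (3.90, SE 0.36, adjusted p = 1.46e-05), and the lactate transporter *Slc16a3* rose by 1.45 (SE 0.12, adjusted p = 7.36e-06). The hexokinases *Hk2* and *Hk1* were lower, with -0.78 and -0.63, and the change of *Hk1* fell short of 0.6 without Ly6Chi replicate 2 or Ly6Clo replicate 4 (-0.55 and -0.58). *Pkm* was not called (-0.50) and was called without Ly6Chi replicate 3 (-0.61).

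**Figure D4:**
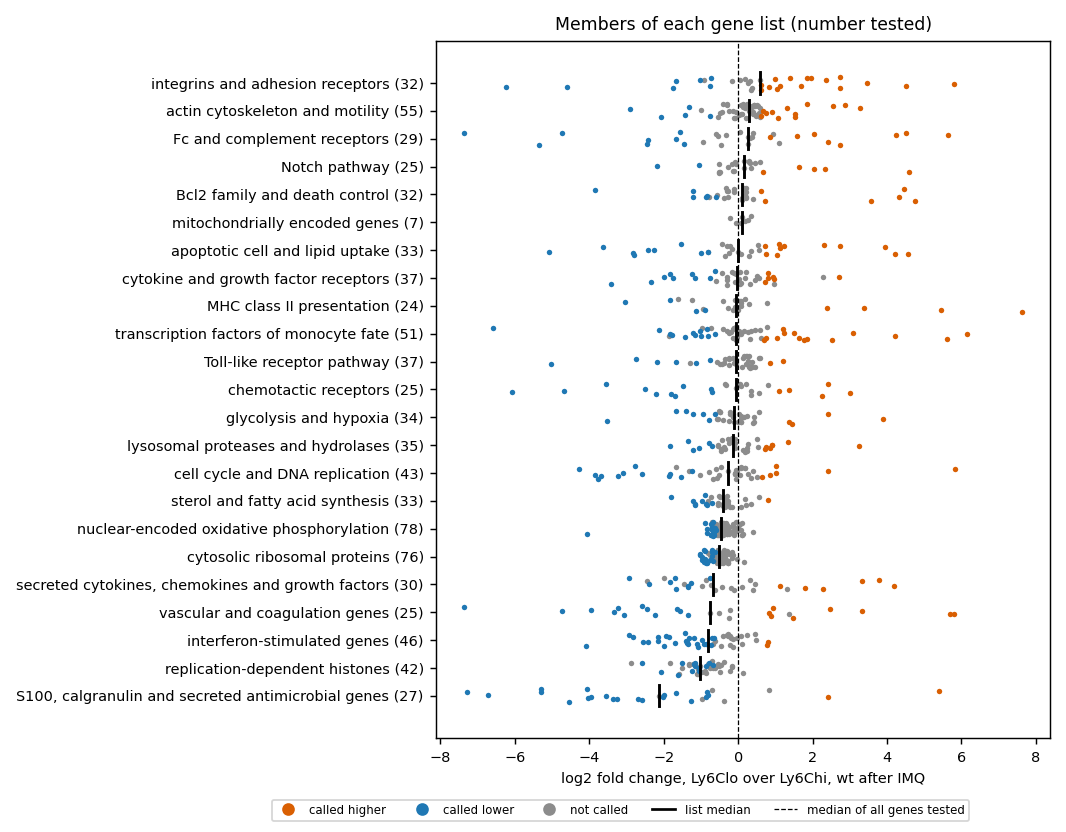
Log2 fold change of Ly6Clo over Ly6Chi cells, wt after IMQ (horizontal axis), for the tested members of each gene list other than cell type markers and sort gate antigens, with 1 point per gene, orange for called higher, blue for called lower and grey for not called. Black bars mark the list medians, from -2.12 for the S100 and antimicrobial list to 0.60 for adhesion receptors, and the dashed line the median of -0.0073 over all genes tested.

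The same comparison in N2ΔMy mice shares no library with the one in wt mice. Of the 1331 genes higher in wt Ly6Clo cells, 832 (62.5%) were also called higher in N2ΔMy Ly6Clo cells and 0 were called lower. Of the 1429 lower genes, 772 (54.0%) were called lower and 15 higher. In N2ΔMy cells 17.4% of all genes tested were called. The median log2 fold change of the higher genes was 1.08 in wt and 0.87 in N2ΔMy cells, and that of the lower genes -1.23 and -0.80. The wt values chose the genes, so a smaller median in the other genotype is a description only.

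The difference between the genotypes was tested as the interaction of subset with genotype in a fit of 16 IMQ libraries. It was called for 116 genes (1.03%), 109 (0.971%) with a higher and 7 (0.0623%) with a lower Ly6Clo to Ly6Chi change in N2ΔMy mice. With the replicate block it was called for 271 genes, among them all 116. In this fit the block joins same-numbered libraries of both genotypes, which came from different animals. A pairing across the genotypes was not checked. Of the genes lower in wt Ly6Clo cells, 98 had a higher interaction and 1 a lower, and of the genes higher in wt Ly6Clo cells, 2 had a higher and 5 a lower. The wt change both chose these genes and enters the interaction, so this split is a description only. The second library series alone gave 18 calls, and leaving out Ly6Chi replicate 2 of the wt mice gave 75. Sums over the markers of both subsets also differed between the genotypes in Ly6Clo cells. The sum over 21 classical monocyte markers was 47546 to 74314 in wt and 99006 to 145673 in N2ΔMy Ly6Clo libraries, against 326546 to 449038 and 355526 to 465864 in Ly6Chi libraries. That over 22 patrolling monocyte markers was 206969 to 243809 in wt and 122979 to 145724 in N2ΔMy Ly6Clo libraries. In Ly6Chi libraries it was 39320 to 63486 in wt and 29072 to 45599 in N2ΔMy mice. Neither sum overlapped between the genotypes in Ly6Clo cells. The median Ly6Clo to Ly6Chi change of the patrolling markers was 2.75 in wt and 2.71 in N2ΔMy cells. Of these 22 markers, 1 was called in the interaction. Tissue macrophage markers differed as well. Their sum over 12 genes was 4021 to 6147 in wt and 7901 to 11941 in N2ΔMy Ly6Clo libraries, against 2308 to 3129 and 3387 to 4298 in Ly6Chi libraries, with *Vsig4* listed at 0 in all 16 libraries. The sum over 10 dendritic cell markers was 427 to 2136 in N2ΔMy Ly6Clo libraries. The part of Ly6Chi, macrophage or dendritic cells in the interaction was not tested.

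*Gas7* is an example, at 50, 49, 145 and 42 in wt Ly6Clo and 3792, 3090, 3380 and 3098 in wt Ly6Chi libraries, but at 2676, 2306, 2364 and 1957 in Ly6Clo and 4068, 3700, 5118 and 4242 in Ly6Chi libraries of N2ΔMy mice (interaction 4.84, SE 0.38, adjusted p = 2.91e-06). *Siglec1*, a sialic acid receptor of macrophages, stood at 3, 29, 0 and 0 against 118, 264, 259 and 107 in wt and at 112, 144, 163 and 114 against 85, 137, 351 and 126 in N2ΔMy mice (interaction 5.51, SE 1.12, adjusted p = 0.0207). *Ccr2* (interaction 2.94, SE 0.39, adjusted p = 0.000643), *F13a1* (interaction 3.29, SE 0.56, adjusted p = 0.00546), *Vcan* (interaction 3.36, SE 0.40, adjusted p = 0.00026) and *Fn1* (interaction 2.97, SE 0.32, adjusted p = 8.57e-05) were lower in Ly6Clo cells of both genotypes and less so in N2ΔMy mice.

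Complement C1q, made by macrophages, was higher in N2ΔMy Ly6Clo cells. *C1qb*, a chain of C1q, stood at 37, 102, 64 and 84 against 16, 43, 28 and 48 in wt mice, where it was not called (1.09, SE 0.42, adjusted p = 0.0639) but was called with the replicate block and without Ly6Chi replicate 4 or Ly6Clo replicate 1 (adjusted p = 0.00416, 0.0469 and 0.0282), and at 971, 742, 1187 and 1193 against 25, 17, 79 and 51 in N2ΔMy mice (interaction 3.66, SE 0.62, adjusted p = 0.00511). *C1qc* was called in wt mice at 2.04, from values of at most 38, and had an interaction of 3.04. *Calml4* and *Cbr2* turned direction (-1.92 and -2.42 in wt mice, 2.15 and 1.59 in N2ΔMy mice), but both were low in wt mice, at most 33 and 35, and their wt calls were lost without Ly6Chi replicate 2, 3 or 4 or Ly6Clo replicate 1 or 4 (adjusted p of up to 0.0862 and 0.137), that of *Cbr2* also without Ly6Chi replicate 1 or Ly6Clo replicate 3. In the opposite direction, the increases of *Itgb3* (interaction -1.20, SE 0.22, adjusted p = 0.012), the nuclear envelope protein gene *Syne1* (interaction -1.10, SE 0.21, adjusted p = 0.012), *Gne* of sialic acid synthesis (interaction -0.87, SE 0.20, adjusted p = 0.0477) and *Grina* (interaction -0.72, SE 0.15, adjusted p = 0.0236) in Ly6Clo cells were smaller in N2ΔMy mice. The decrease of *Mgst1*, a glutathione transferase and classical monocyte marker, was larger (interaction -0.76, SE 0.15, adjusted p = 0.0138). For *Hes1* and *Nr4a1* the interaction was not called (adjusted p = 0.999 and 0.999), with wt and N2ΔMy changes of 2.04 and 2.23 and of 1.85 and 1.99. A shift of like size in both subsets of N2ΔMy mice would not show in the interaction. The study reports reduced *Hes1* in N2ΔMy Ly6Chi monocytes. It also reports *Hes1* and *Nr4a1* as higher in wt than in N2ΔMy Ly6Clo cells.

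**Figure D5:**
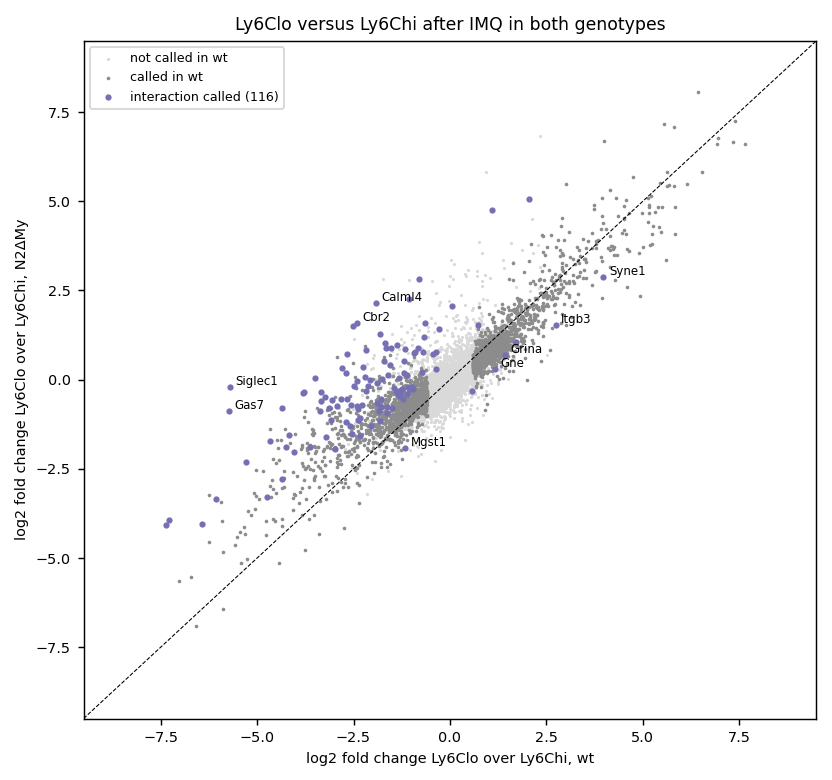
Log2 fold change of Ly6Clo over Ly6Chi cells after IMQ in N2ΔMy mice (vertical axis) against that in wt mice (horizontal), with 1 point per gene tested and the dashed line at equal changes. Dark grey points were called in wt mice, and the 116 purple points were called in the interaction, 109 of them above the line.

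Ly6Chi cells of Sham-treated wt mice give a further reference for the same Ly6Clo libraries, with values set side by side because the comparisons share those libraries. For patrolling markers the median log2 difference of Ly6Clo cells was 2.75 against Ly6Chi cells after IMQ and 3.07 against Ly6Chi cells after Sham. For classical markers it was -2.35 and -2.80. Notch pathway genes stood at 0.16 against IMQ and 0.18 against Sham cells, and actin and motility genes at 0.29 and 0.34. Some other lists gave unlike values. Interferon-stimulated genes stood at -0.80 against IMQ and -2.11 against Sham cells. The S100 and antimicrobial list stood at -2.12 and -0.58, and cell cycle genes at -0.27 and 0.60. Thus *Mki67* stood at 232, 150, 297 and 389, *S100a9* at 0, 0, 0 and 0 and *Lcn2*, an iron-binding neutrophil protein, at 3, 5, 13 and 18 in Sham libraries, against 1151, 1325, 1470 and 2861 for *Lcn2* after IMQ. *Mki67* of Ly6Chi cells was therefore nearer to that of Ly6Clo cells in Sham than in IMQ libraries, and *S100a9* was listed at 0. NK cell markers, whose sum was at most 71 in the wt IMQ libraries of both subsets, summed to 242 to 256 in Sham libraries. The difference between the Sham and IMQ libraries of Ly6Chi cells was not tested here.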

How the data were processed

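Total RNA of sorted cells had been made into libraries with the SMARTer Stranded Pico v2 kit. Per the labels and the study's methods, the authors trimmed reads with Trim Galore 0.4.4, aligned them with STAR 2.5.3a to GRCm38.p6 with GENCODE annotation in the nf-core/rnaseq workflow and normalized counts with DESeq2. The deposited table holds these normalized values rounded to whole numbers, treated here as a score and not as counts, so that no count test was run. Columns with the authors' own fold changes and p-values were not used.

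Values were analysed as log2(value + 1) for the 11230 genes that reached 50 in 1 or more libraries, with limma 3.58.1 (trend, R 4.3.3), the wt Ly6Clo and Ly6Chi IMQ libraries alone in the fit, Benjamini-Hochberg adjustment over all genes tested and thresholds of 0.05 and 0.6. The interaction was fitted over the 16 IMQ libraries of both genotypes. The fits were tested on simulated data. The gene lists and the comparison itself were chosen with earlier results of these data known.

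Named genes were the 12 largest changes in each direction with a mean of at least 500 in the higher group, non-overlapping libraries and the same sign in both series. From each list came the 2 largest called changes in each direction with a mean of at least 100 and the best expressed member not called, and further the sort gate genes, *Notch2*, *Hes1*, *Nr4a1*, *Pou2f2*, *Cebpb*, *Klf2*, *Klf4*, *Irf8*, *Bcl2*, *Ccr2*, *Tlr7* and *Myd88* and the 5 largest interactions in each direction. A few genes that the rule names are not reported here. *Ace*, *C1qc*, *C3*, *Cd14*, *Jag1*, *Lcn2*, *Lfng*, *Maml2*, *Tlr9*, *Tlr11*, *Unc93b1*, *Vsig4*, the markers and mitochondrial genes listed at 0, *Cd79b*, the Notch and cytokine genes below the minimum and those so marked in the text were chosen after their values had been seen.

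Same-numbered wt Ly6Clo and Ly6Chi libraries deviated together from their group means across genes. The correlations were 0.542, 0.507, 0.454 and 0.515, and 0.241 and 0.247 within a series. Libraries of the same series with unlike numbers correlated at 0.196 to 0.413. The numbers were taken to pair the libraries in the replicate block, an alternative. The main fit had no pairing term, and its counts, SE and adjusted p are given unless an alternative is named. No source used here says that same-numbered libraries came from the same animals. The series text calls the 4 libraries of a group biological replicates. Reads per library were inferred from the whole numbers that occur in it. Promoter sequences came from RefSeq. Genes with near-identical copies may share reads. Alternatives were another scaling, filter, pseudocount or variance trend, the replicate block, the series as covariate or alone, all 24 libraries in 1 fit and leaving out each replicate. The last was extended to the N2ΔMy libraries for the interaction after the data had been seen.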

Additional observations from a re-analysis of the deposited data

Results flagged for a closer look

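In some groups of 4 wt IMQ libraries, a single library stood apart by Dixon's test on the normalized counts of the genes named in the text. The test was run on 376 pairs of gene and group, of which 27 (7.18%) passed the 95% critical value, and chance passes about 1 in 20 groups. Ly6Chi replicate 1 was highest for *Dtx3* (275). Ly6Chi replicate 1 was lowest for *Il18* (119). Ly6Chi replicate 2 was highest for *Ccnd2* (18) and *Cd300lb* (1909). Ly6Chi replicate 3 was highest for *H2-Eb1* (265) and *H2-Q6* (127). Ly6Chi replicate 4 was highest for *Hbb-bs* (458), *Mmp8* (3660), *S100a8* (3257), *Il1b* (568), *S100a9* (1651) and *Grina* (1616). Ly6Chi replicate 4 was lowest for *Tlr9* (593). Ly6Clo replicate 1 was highest for *Csf3r* (3865). Ly6Clo replicate 2 was highest for *Siglec1* (29). Ly6Clo replicate 3 was highest for *Klrk1* (35), *Kit* (45), *F13a1* (450), *Gas7* (145) and *Flt3* (325). Ly6Clo replicate 4 was highest for *Hbb-bs* (759), *Tfec* (4), *Lfng* (3400), *Il1b* (4495) and *Ifitm1* (335). Ly6Clo replicate 4 was lowest for *Tns3* (415) and *Il6st* (456).

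The change from Ly6Chi to Ly6Clo cells after IMQ differed between N2ΔMy and wt mice, by the interaction test in limma with an adjusted p of at most 0.05, for several named genes. The difference of the log2 fold changes, N2ΔMy minus wt, was positive for *C1qc* (3.04), *Siglec1* (5.51), *F13a1* (3.29), *Vcan* (3.36), *Fn1* (2.97), *Gas7* (4.84), *Irf4* (1.78), *Capg* (2.17), *Ccr2* (2.94), *Ccr1* (2.74), *Ccl9* (1.67), *F5* (1.45), *Msr1* (1.74), *Bcl2l11* (0.68), *Pmaip1* (0.81), *Cd40* (2.48), *Clec10a* (3.43), *C1qb* (3.66), *Calml4* (4.07) and *Cbr2* (4.01). It was negative for *Itgb3* (-1.20), *Syne1* (-1.10), *Gne* (-0.87), *Grina* (-0.72) and *Mgst1* (-0.76).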

How the results depend on the processing

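The counts of genes higher and lower in wt Ly6Clo cells stayed within 1.5 times of 1331 and 1429 under every alternative tried, at 1020 to 1510 higher and 1023 to 1689 lower. With the replicate block they were 1510 and 1689, with trimmed mean scaling 1268 and 1490, with quantile normalization 1352 and 1370, without the filter on low values 1416 and 1595, and in the second library series alone 1020 and 1023. Leaving out each replicate gave 1210 to 1310 higher and 1268 to 1442 lower genes. The number of genes whose change differed between the genotypes moved more. From 116 it went to 271 with the replicate block, to 210 with the library series as covariate and to 18 in the second series alone, and to between 75 and 173 when 1 replicate was left out, with 75 without wt Ly6Chi replicate 2 and 173 without wt Ly6Clo replicate 3. The cause was not tested. Counts of lower members moved by more than 1.5 times for several lists. In the second series alone they were 5 for secreted factors (9 in the comparison as reported), 5 for cell cycle genes (12), 17 for interferon-stimulated genes (26), 3 for sterol and fatty acid synthesis (9), 4 for glycolysis (7), 2 for class II presentation (4) and 38 for ribosomal proteins (19, also 38 with quantile normalization). With the replicate block or the series as covariate histones had 27 (13), and with the block secreted factors had 14. Of 145 genes named in the text and called, 124 kept the call under every alternative, and no named gene turned direction in a call. The block ended no call of a named gene. Rounding to whole numbers limits genes with values of a few units, where 1 unit is a large step, and 4 libraries per group limit the precision of small changes.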

Other observations

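Genes changed together with their neighbours in several places. On chromosome 11, *Cd300lb*, *Cd300ld*, *Cd300d*, *Cd300lh* and *Cd300e* lie in a row of 5 tested genes that were all higher, between 0.61 for *Cd300lb* and 5.63 for *Cd300e*. *Cd300lb* fell short of 0.6 without any of Ly6Chi replicates 1, 3 and 4 and Ly6Clo replicates 1 and 2 (0.53 to 0.59). On chromosome 17, the non-classical class I genes *H2-Q4*, *H2-Q5*, *H2-Q6* and *H2-Q7* were all higher, the last 3 by 2.39, 3.49 and 1.94, and being near-identical they may share reads. On chromosome 1, the interferon-inducible genes *Mndal*, *Mnda* and *Ifi203* were lower, with -1.60, -2.86 and -1.67. On chromosome 8, the clotting factor genes *F7* and *F10* lie side by side and were both lower. These groups were named after their values had been seen, and how often neighbours share a direction was not tested.

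Transcripts annotated mostly within other genes formed a group of their own. The annotation holds 529 tested loci of its sense intronic class or of its class of unproven transcripts (TEC). Of these, 113 were higher in Ly6Clo cells (21.4%, against 11.9% of all genes) and 12 were lower, and their median was 0.48, against -0.03 for 10006 protein coding genes. For 452 of them a single gene on the same strand contains the locus, 321 such host genes in all. Of the 100 higher loci with a host, 76 lay in a host that was also higher, 24 in a host that was not called and 0 in a lower host. The change of the locus lay above that of its host in 376 of 452 cases, by a median of 0.31. The loci held 0.472% to 0.601% of the values of a Ly6Clo library and 0.238% to 0.493% of those of a Ly6Chi library, so the groups overlapped in this share. Replicate 1 of Ly6Chi was the highest of its group, and reads of unspliced host transcripts cannot be told apart from reads of the loci.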
